A study of Homo sapiens with 6 samples.

Results

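Small nucleolar RNA host genes were described in the breast cancer line MDA-MB-453, an established human cell line, after transfection with a ZNF207 overexpression construct (3 libraries) or a control vector (3 libraries). All libraries came from this 1 line, and the design text calls the 3 libraries of each group independent biological replicates. No source used here gives the promoter of the construct or the time between transfection and harvest. The members were chosen by name: every gene called SNHG plus a number (28 genes), with GAS5, EPB41L4A-AS1, ZFAS1, DANCR and CCDC59, 33 of 60569 gene names in all. Measured values entered this choice only through a rule for repeated names, which keeps the row with the highest mean, and no member name was repeated. The set was, however, drawn up with results of these libraries known, so the group comparison below describes the members and is not independent evidence about them.

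Host genes of this kind are named for the small RNAs that their introns hold. Box C/D small nucleolar RNAs (snoRNAs) guide the methylation of ribosomal RNA, H/ACA snoRNAs guide its pseudouridylation, and the related scaRNAs guide modification of spliceosomal RNAs in Cajal bodies. The intron is spliced out and trimmed to the snoRNA, while the spliced host transcript often holds only short reading frames and is degraded when ribosomes translate it, through nonsense-mediated decay. Many hosts, like the ribosomal protein genes, start transcription at a C followed by a tract of pyrimidines, the terminal oligopyrimidine (TOP) sequence by which growth signalling controls translation. GAS5 was first found as a transcript that accumulates in growth-arrested cells, and its spliced RNA also binds the glucocorticoid receptor.

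The annotation bore out the name for most members. In GENCODE release 29 on GRCh38, 29 of the 33 genes held a named snoRNA or scaRNA inside their span on the same strand. Box C/D snoRNAs lay in 14 members, H/ACA snoRNAs in 13 and scaRNAs in 4, with SNHG12 and SNHG25 holding both kinds of snoRNA. The exceptions were CCDC59, GAS5, SNHG27 and SNHG28. GAS5 is nevertheless well known for the box C/D snoRNAs of its introns. Entries whose names begin with RF were not counted, so a gene listed here as an exception may still hold an annotated snoRNA. CCDC59 is annotated as a protein-coding gene, and no named snoRNA or scaRNA was counted inside it. The deposited table gives a locus per row, and every member shared its listed locus with at least 1 other row, so the division of reads between a member, its snoRNAs and overlapping genes is uncertain.

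The sequences around the annotated starts were searched for a pyrimidine tract that could be a TOP sequence. RefSeq windows (GRCh38.p14) were available for 29 members. A tract was counted where a C within 5 bases of the start, on the strand of the gene, was followed by at least 4 bases that were each C or T. It was found in 14 of these 29 members (48.3%), in 6886 of 27305 genes with a window (25.2%) and in 55 of 67 cytosolic ribosomal protein genes (82.1%). The windows of abundant members and of SNHG4 and SNHG12, which had the longest tracts among tested members, run from 10 bases before the start to 20 bases into the transcript, with the tract in capitals. In SNHG8 the tract begins 5 bases before the start, and in SNHG16 at base 6 of the transcript. Counted tracts are therefore not all terminal ones at the RefSeq start. The last 2 windows, of GAS5 and SNHG29, have no tract near the RefSeq start, which says nothing about other start sites. SNHG1, another abundant member, also has none there, and its window is not printed. The RefSeq start of GAS5 lies upstream of its span in GENCODE release 29.
ZFAS1 (chr20:49278632-49278661, plus strand): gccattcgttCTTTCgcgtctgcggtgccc
SNHG32 (chr6:31834906-31834935, plus strand): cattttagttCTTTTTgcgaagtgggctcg
SNHG5 (chr6:85678714-85678743, minus strand): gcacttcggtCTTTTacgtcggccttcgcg
SNHG19 (chr16:2155339-2155368, minus strand): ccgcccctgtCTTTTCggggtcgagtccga
SNHG16 (chr17:76557754-76557783, plus strand): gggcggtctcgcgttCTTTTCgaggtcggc
SNHG8 (chr4:118278752-118278781, plus strand): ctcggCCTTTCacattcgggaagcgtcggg
SNHG4 (chr5:139274091-139274120, plus strand): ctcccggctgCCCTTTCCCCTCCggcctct
SNHG12 (chr1:28581854-28581883, minus strand): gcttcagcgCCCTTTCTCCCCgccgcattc
GAS5 (chr1:173869026-173869055, minus strand): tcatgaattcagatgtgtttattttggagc
SNHG29 (chr17:16438977-16439006, plus strand): ccttttgtgaggattgggatattccgactc

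The cells and the construct were checked first. ZNF207 (BuGZ), which brings the checkpoint protein BUB3 to kinetochores, stood at 885, 786 and 750.0 FPKM in the overexpression libraries, against 69.2, 67.0 and 63.7 FPKM in the control libraries. Of 10 luminal and apocrine markers, 9 were at 1 FPKM or more in all 6 libraries, among them GATA3, FOXA1 and KRT8, and TFAP2B stayed below 1 FPKM. Of 10 markers of fibroblasts, immune cells, basal cells and endothelium, 9 stayed below 1 FPKM in every library, and COL1A1 lay between 7.98 and 11.3 FPKM. The luminal markers summed to between 6488 and 6562 FPKM in the overexpression libraries and between 6836 and 7204 FPKM in the controls. The most abundant, KRT8, KRT19 and KRT18, had log2 differences (overexpression minus control) of -0.09, -0.22 and -0.07. Of the 9 markers at 1 FPKM or more, 5 were above 0 and 4 below, with a median of 0.05. The part of the lower sum in the results was not tested. FPKM is a fragment number scaled for transcript length and for library size. It summed to between 589550 and 611013 per overexpression library and between 595032 and 612875 per control library, and read depth is unknown.

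Most members were expressed, over a wide range of levels. Of the 33, 28 reached 1 FPKM in 3 or more libraries and entered the comparison. The mean over the 6 libraries was 100 FPKM or more in 8 members and 20 FPKM or more in 17. SNHG25 is among the 17 only through overexpression replicate 1, at 493 FPKM, and was at most 4.42 FPKM in any other library. SNHG29 (chromosome 17, 16438822 to 16478678, plus strand, listed in the annotation as LRRC75A-AS1) led with 425 FPKM, followed by GAS5 (chromosome 1, 173863900 to 173868882, minus strand) with 409 FPKM. Together they made up 38.7% to 40.4% of the summed FPKM of the members in each library, with SNHG25 left out of the sum. Host genes of box C/D snoRNAs had a median of 99.5 FPKM over 12 tested genes, those of H/ACA snoRNAs 23.6 FPKM over 12, and the 4 hosts of scaRNAs, SNHG10, SNHG20, SNHG21 and SNHG22, 5.49 FPKM. These are levels per length, and a host with both kinds counts in both, as SNHG25 does. GAS5 was not counted among the box C/D hosts, because no named snoRNA was counted inside it.

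The 5 members left out were near or at 0. SNHG31 lay between 0.426 and 1.23 FPKM and reached 1 FPKM in control replicate 1 only. SNHG14, the long host of the imprinted SNORD115 and SNORD116 clusters that silences UBE3A in neurons, was above 0 in 3 libraries and did not pass 0.0524 FPKM. SNHG28 was above 0 in 2 libraries, at most 0.0634 FPKM. SNHG18 and SNHG27 were listed at 0 in all 6.

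**Figure D1:**
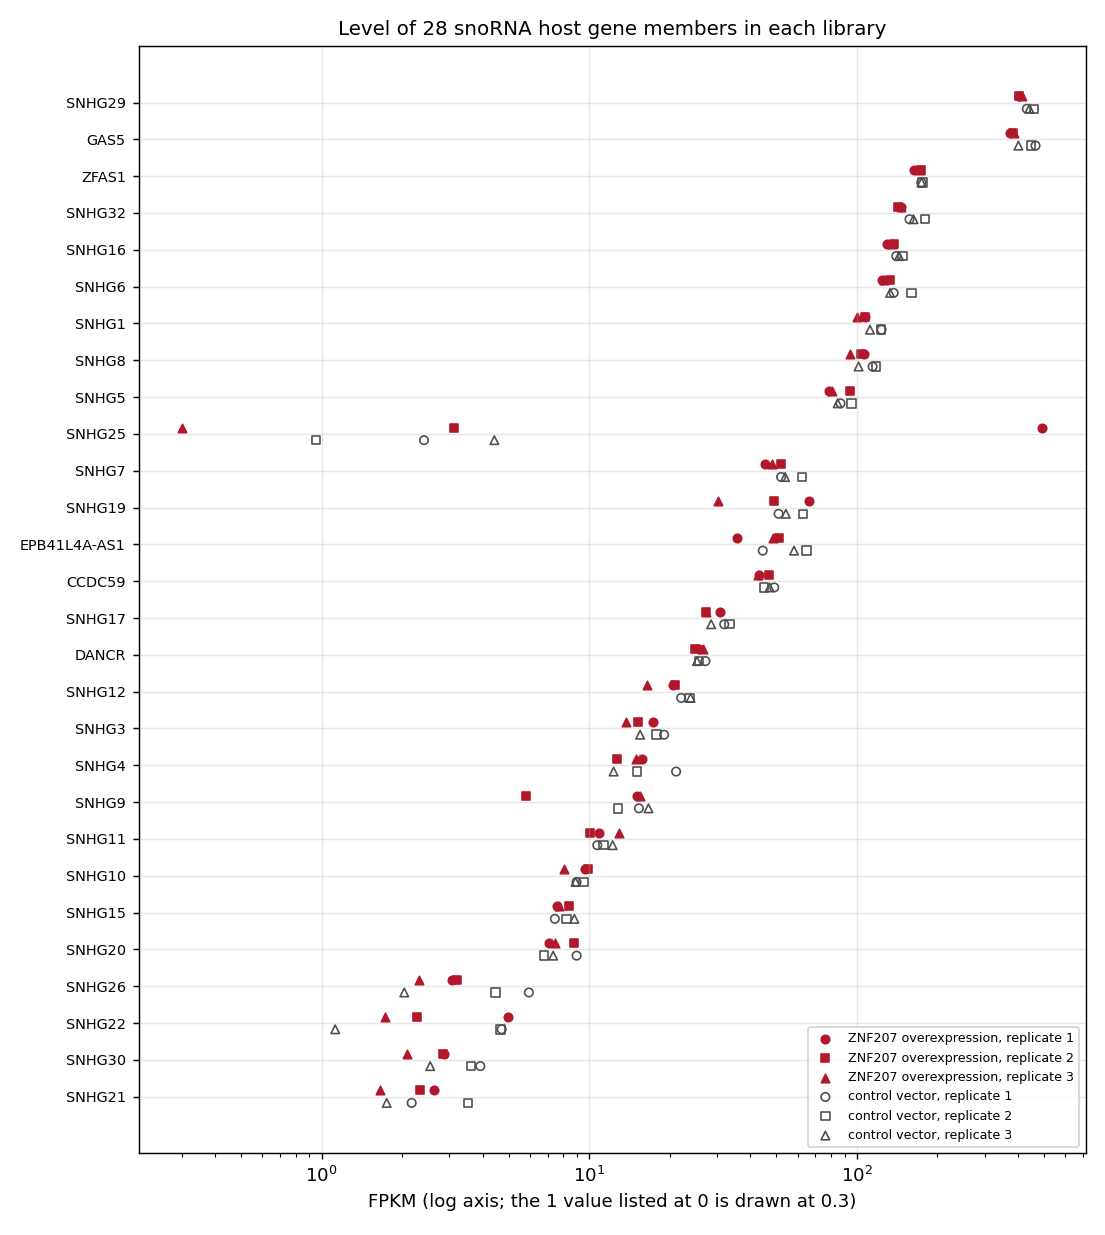
FPKM (log axis) of the 28 tested members in each library, ordered by mean level; filled red symbols are the 3 ZNF207 overexpression libraries and open grey symbols, just below them, the 3 control libraries, with a symbol shape per replicate. Members run from SNHG29, between 403 and 458 FPKM, to SNHG21, and SNHG25 alone spreads from a value listed at 0 to 493 FPKM.

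The comparison asked whether host genes differed when ZNF207 was overexpressed. None of the 28 passed the test, which was limma on log2(FPKM + 1) with Benjamini-Hochberg adjustment (13185 tested genes, threshold 0.05). Over all genes it called 0.159% lower and 0.0531% higher. At an unadjusted p under 0.05, 7 members were lower and 0 higher, where 7.03% of all tested genes were lower and 5.08% higher. The 7 were SNHG29, GAS5, SNHG32, SNHG6, SNHG1, SNHG7 and SNHG12. The estimates leaned one way: 25 of 28 were below 0, against 52.4% of all tested genes, and their median log2 difference was -0.13, against -0.01 over all tested genes. Leaving out 1 library in turn gave 22 to 26 members below 0 and a median of -0.09 to -0.22, the last without control replicate 3. At that unadjusted p, the count of 7 lower became 3 without control replicate 2, 4 without overexpression replicate 3 and 10 without control replicate 3. Of the 13185 tested genes, 636, 713 and 894 were lower in these fits. Without overexpression replicate 3, 1 member was higher, where 457 of all tested genes were. Exact permutation of 3 against 3 libraries has 0.1 as its smallest p and was not used. In bulk RNA, less RNA per cell and fewer cells that express a gene cannot be told apart.

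Complete separation of the groups was seen in 8 members, all lower in the overexpression libraries (28.6% of the tested members, where 10.4% of all tested genes separated in that direction), and in 0 members in the other direction (7.61% of all tested genes). Of these 8, 7 were among the 7 most abundant tested members, and the remaining one was SNHG12. SNHG29, host of SNORD49A, SNORD49B and SNORD65, had 404, 403 and 415 FPKM in the overexpression libraries, against 431, 458 and 441 FPKM in the control libraries. The lowest control lay above the highest overexpression library, and the means were 407 ± 6.62 and 443 ± 13.6 FPKM (SD, n = 3 each; log2 difference -0.12, SE 0.05, limma adjusted p = 0.351). GAS5 stood at 374, 382 and 385 FPKM in the overexpression libraries, against 465, 448 and 401 FPKM in the control libraries. Its overexpression libraries lay close together, while control replicate 3 was the control nearest to them (log2 difference -0.20, SE 0.06, limma adjusted p = 0.236).

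SNHG32 (chromosome 6, 31834608 to 31839766, plus strand, C6orf48 in the annotation), the host of SNORD48 and SNORD52, had 146, 142 and 146 FPKM in the overexpression libraries, against 157, 179 and 163 FPKM in the control libraries. Control replicate 2 was the highest and the overexpression libraries differed little among themselves (log2 difference -0.20, SE 0.06, limma adjusted p = 0.215). SNHG1 (chromosome 11, 62851988 to 62855914, minus strand) is a classic noncoding host, with 6 named box C/D snoRNAs counted inside it. It stood at 108, 107 and 99.7 FPKM in the overexpression libraries, against 124, 123 and 112 FPKM in the control libraries. In each group replicate 3 was the lowest (log2 difference -0.19, SE 0.06, limma adjusted p = 0.238). SNHG16 (chromosome 17, 76557766 to 76565348, plus strand), host of the SNORD1 family, had 129.6, 137 and 135 FPKM in the overexpression libraries, against 140.3, 148 and 144 FPKM in the control libraries, a narrow gap between groups with a log2 difference of -0.10 (SE 0.05). SNHG6 (chromosome 8, 66921684 to 66926398, minus strand), host of SNORD87, had 124, 133 and 126 FPKM in the overexpression libraries, against 137, 160.0 and 133 FPKM in the control libraries. There control replicate 3 and overexpression replicate 2 were almost level, and the log2 difference was -0.16 (SE 0.07).

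ZFAS1 (chromosome 20, 49278178 to 49295738, plus strand), which hosts the SNORD12 family and starts beside the promoter of ZNFX1, had the smallest log2 difference of the 8. It stood at 163, 173 and 173 FPKM in the overexpression libraries, against 174, 176 and 174 FPKM in the control libraries. Overexpression replicate 1 lay apart below the other 5 libraries, and the log2 difference was -0.04 (SE 0.05, limma adjusted p = 0.778). SNHG12 (chromosome 1, 28578538 to 28583132, minus strand), with SNORD99 and 3 H/ACA snoRNAs, had 20.5, 20.9 and 16.5 FPKM in the overexpression libraries, against 22.1, 23.7 and 23.9 FPKM in the control libraries. Overexpression replicate 3 was its lowest library, and its log2 difference of -0.26 (SE 0.09, limma adjusted p = 0.307) was larger than that of the other members that separated.

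**Figure D2:**
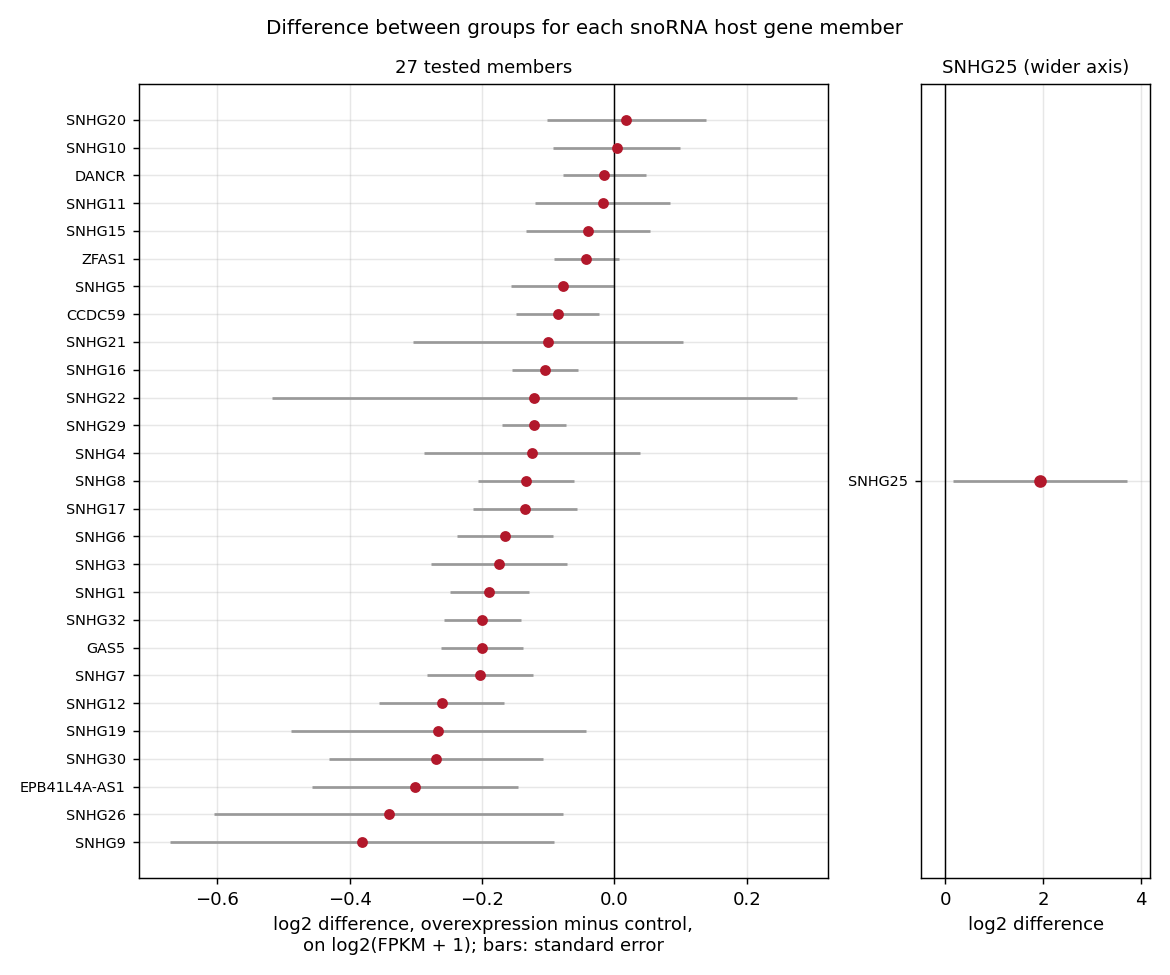
Log2 difference (overexpression minus control, on log2(FPKM + 1)) of each tested member, points with bars of 1 standard error; the left panel holds 27 members and the right panel SNHG25 on a wider axis. Points lie below 0 for 25 of 28 members, and the bars of several low-level members, such as SNHG22 and SNHG26, are the widest in the left panel.

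Hosts of H/ACA snoRNAs overlapped between groups, apart from SNHG12. EPB41L4A-AS1 (chromosome 5, 112160526 to 112164276, plus strand), the host of SNORA13, had 35.6, 51.2 and 48.7 FPKM in the overexpression libraries, against 44.5, 64.9 and 58.2 FPKM in the control libraries. Replicate 1 was the lowest in both groups, and overexpression replicates 2 and 3 lay between the controls (log2 difference -0.30, SE 0.16, limma adjusted p = 0.482). SNHG7 (chromosome 9, 136721366 to 136728184, minus strand), host of SNORA17A and SNORA17B, stood at 45.4, 52.1 and 48.0 FPKM in the overexpression libraries, against 52.1, 62.3 and 53.9 FPKM in the control libraries. The groups met only where overexpression replicate 2 and control replicate 1 were level (log2 difference -0.20, SE 0.08, limma adjusted p = 0.347). SNHG8, host of SNORA24, was at 107, 103 and 94.0 FPKM in the overexpression libraries and 114, 118 and 101 FPKM in the controls, with replicate 3 lowest in both groups (log2 difference -0.13, SE 0.07). SNHG3, the U17 host gene with SNORA73A and SNORA73B, had 17.2, 15.2 and 13.7 FPKM in overexpression libraries and 19.0, 17.9 and 15.5 FPKM in controls, again with replicate 3 lowest in each (log2 difference -0.17, SE 0.10).

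The other H/ACA hosts had estimates between -0.14 and -0.02, apart from SNHG9 and SNHG25, which are described further on. SNHG17, with 4 genes of the SNORA71 family inside it, had a log2 difference of -0.14 (SE 0.08), and its neighbour SNHG11, with SNORA71E and SNORA60, one of -0.02 (SE 0.10). DANCR, host of SNORA26 and known as a noncoding RNA that holds back differentiation, lay between 24.9 and 27.2 FPKM in all 6 libraries (log2 difference -0.02, SE 0.06). SNHG15, host of SNORA9, lay between 7.44 and 8.80 FPKM (log2 difference -0.04). SNHG4, host of SNORA74A, spread from 12.3 to 21.1 FPKM, both ends being controls (log2 difference -0.12, SE 0.16).

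Among the remaining box C/D hosts, SNHG5, which holds SNORD50B, had 78.6, 94.0 and 80.7 FPKM in overexpression libraries and 86.9, 95.6 and 84.7 FPKM in controls (log2 difference -0.08, SE 0.08). SNHG26 and SNHG30, hosts of SNORD93 and SNORD7, were low and variable. SNHG26 stood at 3.07, 3.20 and 2.31 FPKM in the overexpression libraries, against 5.95, 4.46 and 2.04 FPKM in the control libraries. The controls alone spread more widely than the overexpression libraries, and control replicate 3 was the lowest of all 6 libraries (log2 difference -0.34, SE 0.26, limma adjusted p = 0.654). SNHG30 had 2.86, 2.85 and 2.09 FPKM in the overexpression libraries, against 3.92, 3.61 and 2.55 FPKM in the control libraries. Replicate 3 was lowest in each group, and control replicate 3 lay below 2 overexpression libraries (log2 difference -0.27, SE 0.16, limma adjusted p = 0.549).

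Of the 4 scaRNA hosts, 2 had estimates below 0. SNHG10 and SNHG20 had log2 differences of 0.00 (SE 0.10) and 0.02 (SE 0.12). SNHG21 had -0.10 (SE 0.20) and SNHG22 -0.12 (SE 0.40). SNHG22 was at 4.98, 2.27 and 1.72 FPKM in overexpression libraries and 4.71, 4.65 and 1.12 FPKM in controls, and replicate 3 was the lowest in each group. CCDC59, which like SNHG32 is annotated as protein-coding, lay between 42.9 and 49.1 FPKM (log2 difference -0.09, SE 0.06).

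In 3 of 28 tested members (10.7%) 1 library stood apart from the other 5, meaning that its gap to the nearest other value, as a share of the whole range, passed Dixon's critical value for 6 values on the log2(FPKM + 1) scale. Over all tested genes 4.43% met this rule. The members were SNHG25, SNHG9 and ZFAS1, and the library was overexpression replicate 1 for SNHG25 and ZFAS1 and overexpression replicate 2 for SNHG9.

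SNHG25 (chromosome 17, 64145970 to 64146476, plus strand) had by far the widest spread. It stood at 493 FPKM in overexpression replicate 1, at 3.13 FPKM in replicate 2 and was listed at 0 in replicate 3, against 2.41, 0.952 and 4.42 FPKM in the control libraries. Overexpression replicate 1 was 112-fold above the next highest library, control replicate 3. Its log2 difference was 1.94 (SE 1.79, limma adjusted p = 0.712), and without overexpression replicate 1 it was -0.70 (adjusted p = 0.689), so 1 library set the direction. The gene is annotated with 2 short transcripts, of 278 and 106 bases. The first carries the whole H/ACA snoRNA SNORA50C inside its second exon, as bases 141 to 273, printed here in capitals, and the second ends before it. The box C/D snoRNA SNORD104 lies in the intron of both.
SNHG25, longer transcript: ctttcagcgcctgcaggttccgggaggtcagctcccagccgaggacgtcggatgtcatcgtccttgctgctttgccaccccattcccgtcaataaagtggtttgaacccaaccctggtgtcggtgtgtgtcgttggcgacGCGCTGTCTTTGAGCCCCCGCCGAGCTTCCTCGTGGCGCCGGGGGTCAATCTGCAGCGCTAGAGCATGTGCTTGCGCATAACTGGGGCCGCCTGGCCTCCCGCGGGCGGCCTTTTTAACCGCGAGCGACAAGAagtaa
SNHG25, shorter transcript: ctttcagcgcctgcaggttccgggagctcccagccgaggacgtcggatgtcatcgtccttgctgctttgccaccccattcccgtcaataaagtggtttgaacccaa

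The snoRNA inside SNHG25 was above 0 in the same library. SNORA50C (chromosome 17, 64146339 to 64146471) was at 46.8 FPKM in overexpression replicate 1 and listed at 0 in the other 5 libraries, and SNORD104 was listed at 0 in all 6. SNORA50C takes up 47.8% of the longer SNHG25 transcript, so its reads could be given to both rows, and their division was not tested. In 3 tested members the longest annotated transcript is under 600 bases, and the others are SNHG19 (342 bases) and SNHG9 (471 bases). On the log2 scale the within-group SD of these 3 had ranks 1, 5 and 3 of 28, at 3.36 for SNHG25, 0.41 for SNHG19 and 0.53 for SNHG9, beside a median of 0.12 over the members and 0.11 over all tested genes. At a mean of 20 FPKM or more the median SD was 0.10 over the members and 0.083 over tested genes. Under 20 FPKM it was 0.22 and 0.14. The next shortest tested members, SNHG6 (648 bases) and SNHG8 (672 bases), had an SD of 0.11 and 0.10. Over all 28 tested members, Spearman's rho between this SD and the longest transcript was -0.24. Whether transcript length had a part in this spread was not tested.

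SNHG9 (chromosome 16, 1964959 to 1965509, plus strand), host of SNORA78, stood at 15.1, 5.80 and 15.4 FPKM in the overexpression libraries, against 15.3, 12.8 and 16.6 FPKM in the control libraries. Overexpression replicate 2 lay far below the other 5 libraries, which overlapped between groups. Its log2 difference of -0.38 (SE 0.29, limma adjusted p = 0.648) was 0.04 without that library. SNHG19 (chromosome 16, 2154797 to 2155358, minus strand), host of SNORD60, stood at 66.2, 49.1 and 30.3 FPKM in the overexpression libraries, against 51.0, 62.8 and 54.3 FPKM in the control libraries. The overexpression libraries enclosed all the controls, with replicate 1 above them and replicates 2 and 3 below (log2 difference -0.27, SE 0.22, limma adjusted p = 0.682). Without overexpression replicate 3 the difference was 0.03. Across the 28 members the within-group SD was lower at higher mean levels (Spearman's rho -0.63), a description over genes that share the same 6 libraries.

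**Figure D3:**
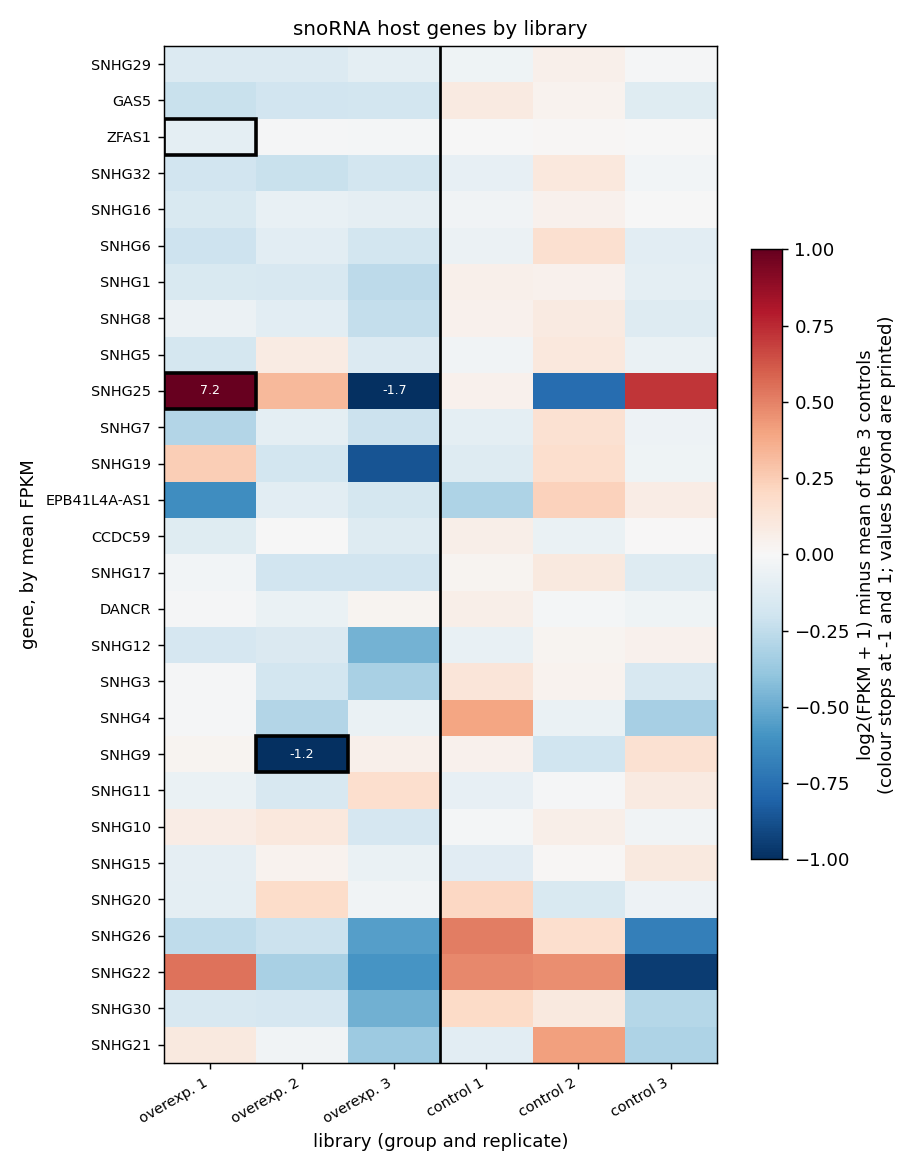
Colour shows log2(FPKM + 1) of each tested member in each library minus the mean of the 3 controls, with overexpression libraries left of the line and controls right of it; black frames mark the 3 members with 1 library apart, and values past the colour scale are printed. The top rows are pale blue in all 3 overexpression columns. SNHG19 and SNHG9 each show 1 strong cell in an overexpression library, and SNHG22 shows 1 in control replicate 3. SNHG25 is strong in overexpression replicates 1 and 3, in opposite directions.

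Seen by library, the lower values were spread over all overexpression libraries. The median member lay -0.10, -0.12 and -0.18 from its control mean in overexpression replicates 1, 2 and 3, and 0.01, 0.05 and -0.05 from it in control replicates 1, 2 and 3 (log2). The same median over all tested genes stayed between -0.02 and 0.02 in the 6 libraries. The lowest of the 6 libraries was an overexpression library for 23 of 28 members (7, 6 and 10 members in replicates 1, 2 and 3). This count was not made over all tested genes, so it has no share to stand beside. Without SNHG25, the members took 0.339%, 0.341% and 0.325% of summed FPKM in the overexpression libraries, against 0.373%, 0.380% and 0.348% in the control libraries.

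The snoRNAs themselves were almost absent from the table. Of 134 named snoRNAs and scaRNAs counted inside the members, all had a row, and 130 were listed at 0 in all 6 libraries. The other 4 were SNORA50C, SNORA71B, SNORA74A and SCARNA17. SNORA71B, inside SNHG17, was above 0 in 5 libraries and at most 8.30 FPKM. SNORA74A, inside SNHG4, was at 5.61 and 3.57 FPKM in overexpression replicates 1 and 2 and listed at 0 elsewhere. SCARNA17, inside SNHG22, was at 65.3 FPKM in overexpression replicate 3 and listed at 0 elsewhere. In that library SNHG22 was at its lowest overexpression value. An amount of mature snoRNA cannot be read from these rows, because no source used here says which RNA sizes the library protocol kept.

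Gene lists around the host genes were set beside them, with no test of a list. Ribosomal protein genes, the best known TOP genes, had a median near that of the host genes: 0 of 81 passed the test, 26 were lower at an unadjusted p under 0.05, 80 were below 0 and the median log2 difference was -0.12. The count of 26 rested on single libraries: it was 5, 12 and 12 without overexpression replicate 1, 2 or 3, and 56, 8 and 13 without control replicate 1, 2 or 3. It was also 6 with no variance trend, 10 with no filter and 5 with quantile scaling. The median was -0.074 without control replicate 2. With quantile scaling the ribosomal median was -0.04, and that of the host genes -0.12. RPL34 was at 749.6 ± 17.6 FPKM in overexpression libraries and 879 ± 66.5 FPKM in controls (SD, n = 3 each; limma adjusted p = 0.196). Of 176 tested genes outside the ribosome with a snoRNA annotated inside them, 0 passed the test, 91 were below 0 and the median was 0.00. Among the 19 protein-coding hosts chosen by name, which partly overlap that list, 0 passed and the median was -0.03, with PPAN, a ribosome assembly factor, at 35.3 ± 4.84 FPKM in overexpression libraries and 44.1 ± 4.35 FPKM in controls (limma adjusted p = 0.265).

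**Figure D4:**
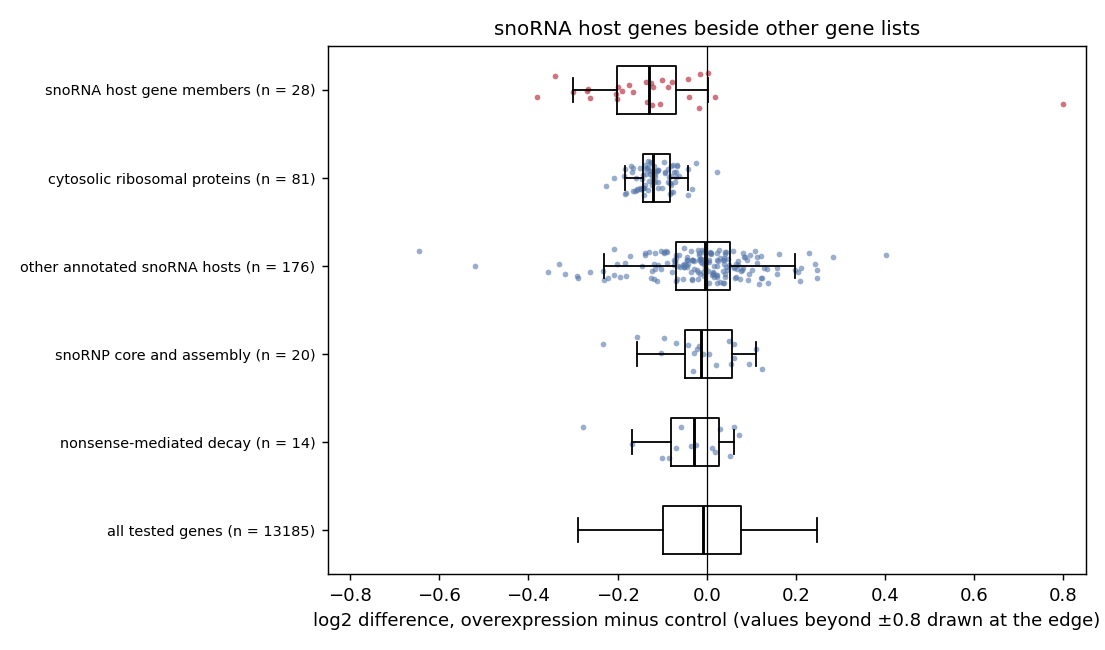
Log2 difference (overexpression minus control) of the members beside other gene lists and all tested genes; boxes are quartiles with the median, whiskers the 5th and 95th percentiles, and points single genes. The medians of host genes (-0.13) and ribosomal proteins (-0.12) lie below 0, and those of the other lists lie near that of all tested genes (-0.01).

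No gene for the proteins of snoRNA particles or for decay of host transcripts passed the test. In the C/D core 0 of 4 genes passed the test and the median was -0.06. That median was -0.12 without overexpression replicate 1, -0.026 without overexpression replicate 3 and -0.025 without control replicate 1. The methyltransferase FBL stood at 148, 153 and 131 FPKM in the overexpression libraries, against 171, 179 and 157 FPKM in the control libraries, without overlap (log2 difference -0.23, SE 0.07, limma adjusted p = 0.236). The H/ACA core had 0 of 4 and a median of -0.03, with GAR1 at 37.2 ± 2.43 FPKM in overexpression libraries and 34.0 ± 1.26 FPKM in controls (limma adjusted p = 0.494). Assembly and transport factors had 0 of 12 and a median of 0.01. Of 14 nonsense-mediated decay factors 0 passed, with a median of -0.03, and MAGOH, a subunit of the exon junction complex, stood at 35.0, 32.3 and 31.7 FPKM in the overexpression libraries, against 40.3, 44.1 and 36.5 FPKM in the control libraries (log2 difference -0.28, SE 0.08, limma adjusted p = 0.196).

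Regulators of TOP mRNAs had 0 of 8 past the threshold and a median of -0.01, with the translation repressor EIF4EBP1 at 91.0 ± 3.65 FPKM in overexpression libraries and 104 ± 11.1 FPKM in controls (limma adjusted p = 0.369). RNA polymerase I and pre-rRNA processing genes had 0 of 20 and a median of -0.01. TAF1A, a subunit of the polymerase I selectivity factor, stood at 4.78, 4.01 and 6.07 FPKM in the overexpression libraries, against 3.59, 3.26 and 2.75 FPKM in the control libraries, without overlap (log2 difference 0.49, SE 0.15, limma adjusted p = 0.228). The glucocorticoid receptor gene NR3C1, whose protein GAS5 can bind, was at 29.4 ± 0.234 FPKM in overexpression libraries and 33.0 ± 1.42 FPKM in controls (limma adjusted p = 0.321), and 0 of 6 tested genes of its list passed (median -0.02).

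Estimates were also set beside the start sequences. All 12 tested members with a counted tract near a RefSeq start had estimates below 0, with a median log2 difference of -0.13. Of 12 tested members without one, 10 were below 0, with a median of -0.15. The 2 sets differed in level, with median means of 52.3 FPKM for those with a tract and 10.3 FPKM for those without.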

How the data were processed

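RNA of 6 MDA-MB-453 libraries was measured by RNA sequencing. The authors deposited 1 table of FPKM values with a column per library. Build hg38, Bowtie2, RSEM 1.3.1 and DESeq2 1.4.5 are named per the submitters' processing notes, and no source used here gives their roles, the annotation, strand or filters. The NC columns were matched to control titles and the 207 columns to ZNF207 titles, replicate by final digit, so values of single libraries rest on this match of names.

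The table has 60658 rows. At most 0.566% of low genes had 1 common ratio between 2 libraries, so whole reads were not recovered and no count test was run. At most 8 tested genes had identical values in a pair of libraries. Genes that reached 1 FPKM in 3 or more libraries were tested as log2(FPKM + 1), which understates the change of low genes, with limma 3.58.1 in R 4.3.3 (variance trend, two-sided, Benjamini-Hochberg over 13185 genes, threshold 0.05). The procedure was tested on simulated data with added changes larger than the differences of all tested members but SNHG25. That test therefore does not show whether differences of the members' size would be called. Members and lists were chosen with earlier results of these data known. Named genes were the members, ZNF207, the markers and, per list, up to 3 genes with the smallest p; SNORA and SCARNA rows were named after their values were seen. Alternatives were another pseudocount, filter, scaling and variance model, a block for the replicate number, and leaving out each library. Gene positions come from GENCODE release 29, start windows from RefSeq (GRCh38.p14).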

Additional observations from a re-analysis of the deposited data

How the results depend on the processing

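Over the 14 alternatives, 364 of 387 member estimates had the sign of the main value, and 17 members had no sign change. No member passed the threshold in 13 of the 14. At an unadjusted p under 0.05, 4 members were lower with no variance trend, 5 with quantile scaling and 11 with the replicate block. The counts over all tested genes were then 884, 820 and 1244. With the replicate number as a block, 1 member was called lower, EPB41L4A-AS1 (adjusted p = 0.0365), with 56 genes higher and 89 lower in all, and 1 gene each was called lower in the C/D core (FBL, adjusted p = 0.0415), among the protein-coding hosts chosen by name, and among annotated hosts with and without ribosomal protein genes (PPAN, adjusted p = 0.0458). Whether the numbers pair the libraries was not settled. Deviations from the group means correlated at 0.14, 0.01 and 0.17 between libraries of number 1, 2 and 3. Overexpression replicates 1 and 3 each correlated best with the control of their own number. Overexpression replicate 2 correlated best with control replicate 3.

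The member median ranged from -0.22 to -0.094 when 1 library was left out, and was -0.13 without SNHG25, an alternative chosen after seeing the data. Leaving out 1 library gave medians of -0.0065 to 0.047 for assembly factors, -0.063 to -0.024 for decay factors, -0.040 to 0.015 for protein-coding hosts and -0.034 to -0.0075 for annotated hosts, in which 0 to 1 genes were then called lower, with and without ribosomal protein genes (FHIT without control replicate 2, adjusted p = 0.0354). Quantile scaling gave a ribosomal median of -0.044, TPM scaling a median of -0.0009 for annotated hosts. The glucocorticoid list had -0.10 with the filter at an FPKM of 5. Signs turned for 11 members when 1 library was left out, none of them called. The log2 differences then ran from -0.037 to 0.014 for DANCR, -0.046 to 0.087 for SNHG10, -0.11 to 0.053 for SNHG11, -0.10 to 0.011 for SNHG15, -0.52 to 0.031 for SNHG19 and -0.063 to 0.12 for SNHG20. They ran from -0.25 to 0.11 for SNHG21, -0.59 to 0.12 for SNHG22, -0.70 to 3.77 for SNHG25, -0.29 to 0.074 for SNHG4 and -0.60 to 0.038 for SNHG9. DANCR also turned with TPM scaling (0.0029). The causes were not tested. Unknown depth leaves differences in members of a few FPKM undecided.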

Other observations

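Rows of snoRNAs and scaRNAs over the whole table behaved like those inside the members. Of 453 rows named SNORA, SNORD or SCARNA, 430 were listed at 0 in all 6 libraries and 23 were above 0 in at least 1.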
